A study of Mus musculus with 12 samples.

Results

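The genes described here are 41 genes of DNA replication and nucleotide supply in the mouse, out of 53735 gene symbols in the deposited count table. They were taken by symbol and comprise the subunits of the replicative helicase, the factors that load and start it, the polymerases, the sliding clamp and its loader, the enzymes that make deoxynucleotides, and chromatin and E2F factors of S phase. The filter on low counts removed no member, so all 41 were among the 18236 genes tested. RNA was sequenced from live mammary epithelial cells sorted on the surface proteins CD24 and CD49f. The 12 libraries form 4 groups of 3: MMTVRANK luminal, WT luminal, MMTVRANK basal and WT basal. MMTVRANK mice carry the receptor Rank under the mouse mammary tumour virus promoter, which is active in mammary epithelium, and WT mice do not. No treatment, age or strain is given in the sources used here, and they do not say whether replicates were separate animals, so each p-value measures the spread between these libraries.

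Before a cell divides it copies its genome once. In G1 the origin recognition complex with Cdc6 and Cdt1 loads the ring of MCM proteins onto DNA. Cdc45 and the GINS complex then join that ring to form the active helicase, and polymerase alpha with primase, polymerases delta and epsilon, the clamp Pcna and the ligase Lig1 build the new strands. Ribonucleotide reductase, thymidylate synthase and thymidine kinase supply the nucleotides. Most of these genes are transcribed at the border of G1 and S phase, when activating E2F proteins replace the repressive complexes of E2F and pocket proteins. In the mammary gland, Rank and its ligand are known to carry the progesterone signal that drives the growth of the epithelium.

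The E2F binding sequence was looked for in promoter windows from RefSeq, on the GRCm38.p6 build that the counts also use. A window runs from 250 bases before to 50 bases after a RefSeq start site. RefSeq windows were matched by symbol for 35 of the 41 members (43 windows), with no window for Atad2, Gins1, Gins2, Gins4, Mcm4 and Pole. The spellings searched, on both strands, were TTTCCCGC, TTTGGCGC, TTTCGCGC and TTTGCCGC, and matches on opposite strands can overlap. At least 1 spelling stood in the windows of 17 of the 35 members, which is 48.6%, against 704 of 27025 genes with a window, which is 2.6%. Member windows had a median of 58.3% G and C, against 52.7% over all windows. Of 13395 genes with a window of at least 53.5% G and C, the lower quartile of the members, 4.12% held a match. The sequences below show 8 members from 5 of the roles, each cut from the part of the window upstream of the start site. Each reads 5′ to 3′ in the direction of the gene, and the capitals mark the E2F matches.
Mcm5: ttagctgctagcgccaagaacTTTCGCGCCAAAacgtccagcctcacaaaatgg
Mcm6: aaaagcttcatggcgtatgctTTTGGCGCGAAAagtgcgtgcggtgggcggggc
Orc1: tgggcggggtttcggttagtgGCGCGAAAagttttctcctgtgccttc
Cdc6: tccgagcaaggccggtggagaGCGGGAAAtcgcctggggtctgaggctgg
Pola1: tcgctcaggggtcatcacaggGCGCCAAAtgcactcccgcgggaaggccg
Hells: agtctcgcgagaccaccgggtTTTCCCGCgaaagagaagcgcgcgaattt
Uhrf1: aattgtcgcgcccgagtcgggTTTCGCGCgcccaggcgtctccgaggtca
E2f7: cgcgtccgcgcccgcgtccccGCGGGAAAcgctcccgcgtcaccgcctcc
The Mcm5 stretch is chr8:75109335-75109388 on the plus strand and the Mcm6 stretch is chr1:128359783-128359836 on the minus strand. Both helicase genes held 2 overlapping matches, one on each strand, in a run of capitals. The Orc1 stretch is chr4:108579406-108579453 and the Cdc6 stretch is chr11:98907992-98908041, both on the plus strand. The Pola1 stretch is chrX:93632265-93632314 on the minus strand. The stretches of Hells (chr19:38930907-38930956), Uhrf1 (chr17:56304107-56304156) and E2f7 (chr10:110745220-110745269) are on the plus strand.

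Over the 17 members there were 24 matches, 15 beginning before the start site and 9 at or after it. In Mcm3, Cdt1, Pold1, Lig1 and E2f2 matches stood only downstream of the start site. Among other helicase genes, Gins3 had a match at base −41 and Mcm7 at −165 and 17. Rrm2, Tyms, Pcna and Uhrf1 at its upstream start site had none of these letters in their windows, which says nothing of sites elsewhere. E2f1 had none either, but its window (chr2:154569377-154569676, minus strand) lay inside the gene model used for counting, which runs on to base 154569892. The stretch before that model was thus not searched for E2f1. The windows of Cdc6 and Mcm7, and those that held the matches of Dnmt1, Lig1 and Uhrf1, also lay inside the gene models. The CCAAT box stood in 23 of the 35 members (65.7%), against 41.1% of all genes. The CHR element TTTGAA, a motif of late cell cycle promoters, stood in 7 of 35 members (20%), against 20.2% of all genes. A list of 30 mitosis genes had another makeup: of 25 with a window, 18 (72.0%) held TTTGAA and 1 (4.00%) held an E2F spelling. Of 36 other fork and origin genes with a window, 10 (27.8%) held an E2F spelling. A match is a run of letters and not a shown binding site.

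**Figure D1:**
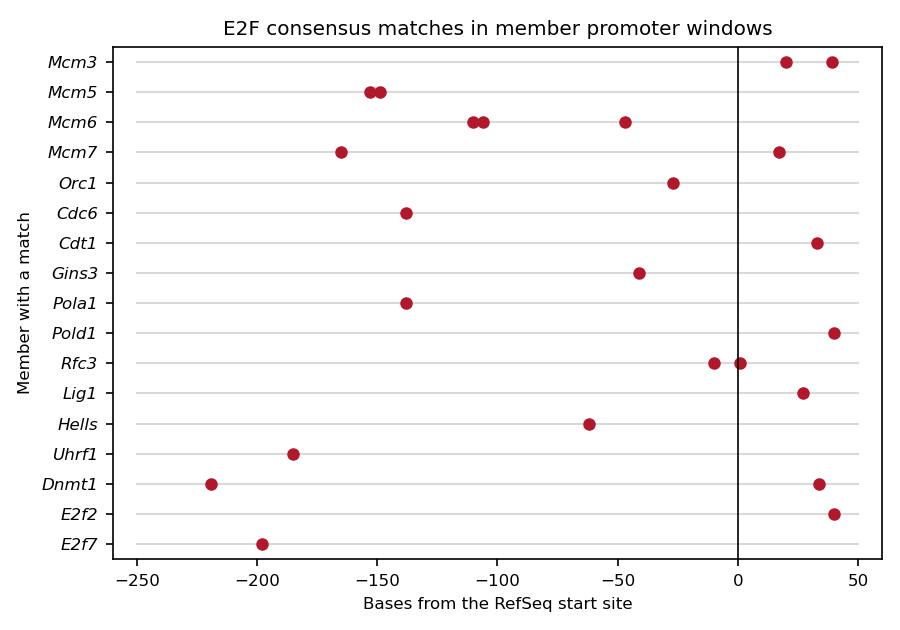
Position of each match to the E2F spellings (red points) along the promoter windows (grey lines) of the 17 members that held at least 1; the horizontal axis is the distance in bases from the RefSeq start site, marked by the black line. Of the 24 points, 15 lie left of the start site and 9 at it or to its right.

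Total counts were 12459547 to 15069578 per library, and 19472 to 26410 genes had a count. The Rank gene Tnfrsf11a stood at 319, 156 and 238 CPM (read counts scaled to library size) in MMTVRANK luminal replicates 1, 2 and 3, against 6.36, 90.8 and 9.91 CPM in WT luminal. It stood at 415, 129 and 218 CPM in MMTVRANK basal and 73.7, 158 and 65.3 CPM in WT basal. The libraries labelled WT luminal replicate 2 and WT basal replicate 2 thus held more of it than the other WT libraries. Reads of the transgene and of the mouse's own Rank gene cannot be told apart in these counts. The same pair carries conflicting labels, luminal in one title and basal in its subtype entry, and the reverse in its partner. Titles were followed, and the 14 basal markers summed to 599 CPM in the library titled luminal and 28136 CPM in the library titled basal. The library labelled WT basal replicate 2, at 158 CPM, also held more Tnfrsf11a than MMTVRANK basal replicate 2, at 129 CPM. By this gene the genotype of both libraries labelled WT replicate 2 is in doubt, and every genotype direction below takes the labels as they stand. The sum of 23 leukocyte markers was 133, 166 and 1212 CPM in MMTVRANK luminal, against 162, 152 and 159 CPM in WT luminal. Of these markers 5, 9 and 0 were at 0 counts in MMTVRANK luminal and 5, 9 and 3 in WT luminal, and the lymphocyte markers Cd3g, Cd2 and Igkc were at 0 in MMTVRANK luminal replicates 1 and 2. The T cell receptor gene Trbc2 was not absent, at 4.15 ± 0.308 CPM in MMTVRANK luminal and 11.5 ± 5.57 CPM in WT luminal (SD, n = 3). Its log2 fold change was −1.47 (SE 0.53). Lcp1 made up most of the low sums, at 145 ± 32.9 CPM in MMTVRANK luminal and 116 ± 14.2 CPM in WT luminal (SD, n = 3). Of 20 leukocyte markers tested 18 were positive in luminal cells, with a median of 2.55 and 0 called, and their part in the results below was not tested. Fibroblast markers summed to 127, 242 and 624 CPM in MMTVRANK luminal and 139, 44.6 and 154 CPM in WT luminal.

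In luminal cells all 41 members had a positive log2 fold change, MMTVRANK over WT, whereas 52.8% of all genes tested did. The median over the members was 1.72, a 3.29-fold higher level, against a median of 0.03 over all genes. Pola1, Tyms and Atad2 rose past an adjusted p of 0.05 in the edgeR quasi-likelihood test. That is 3 of 41 members called higher where the background was 0.0932% of all genes, and 0 members called lower where it was 0.159%. A further 32 members had an unadjusted p under 0.05 without passing the adjustment, which makes 35 in all. Of all 18236 genes tested, 2183 had an unadjusted p under 0.05. In 35 of 41 members all MMTVRANK luminal libraries lay above all WT luminal libraries, which held for 10.1% of all genes, and in 0 members did they lie below, against 6.82% of all genes. The 6 members whose libraries overlapped were Orc1, Rfc5, Rpa1, Fen1, Tk1 and Dnmt1. In bulk libraries a larger share of cells in S phase and more RNA per such cell cannot be told apart.

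**Figure D2:**
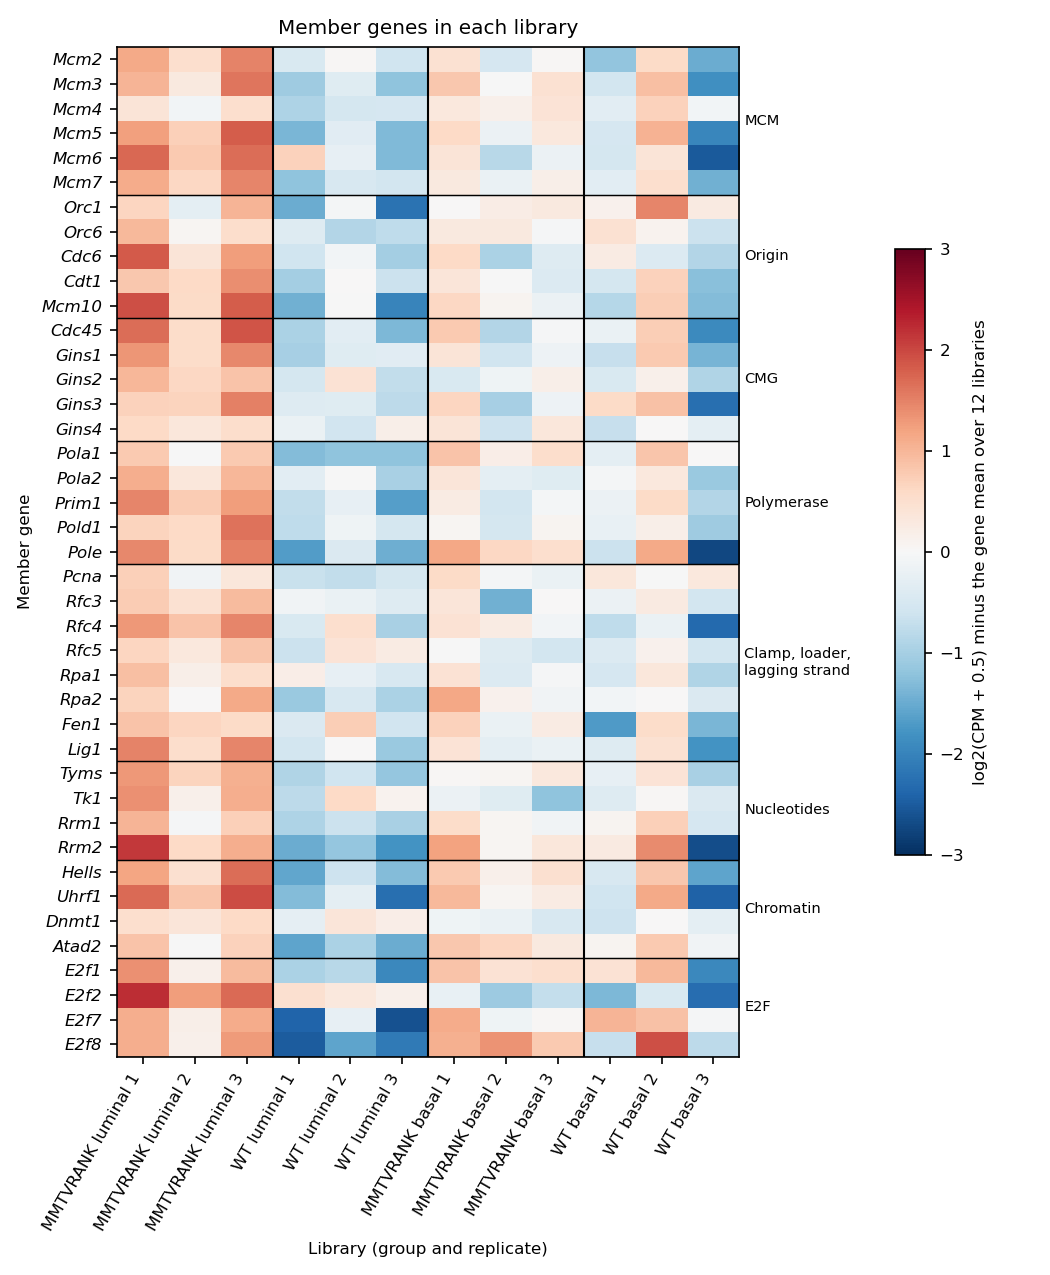
Each row is a member gene, ordered by role, and each column a library; colour gives log2(CPM + 0.5) minus the mean of that gene over the 12 libraries, red above and blue below. MMTVRANK luminal replicates 1 and 3 are the reddest columns, WT luminal replicates 1 and 3 and WT basal replicate 3 the bluest, and WT basal replicate 2 is mostly red.

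The members moved together from library to library. Their summed level was 2434, 1529 and 2542 CPM in MMTVRANK luminal replicates 1, 2 and 3, against 800, 1059 and 788 CPM in WT luminal. The MMTVRANK sums lay above the WT sums, with MMTVRANK replicate 2 the lowest of its group and WT replicate 2 the highest of its own. Among the luminal libraries, 22 members had their highest CPM in MMTVRANK replicate 3 and 19 in MMTVRANK replicate 1, while 23 had their lowest in WT replicate 3, 15 in WT replicate 1 and 3 in WT replicate 2. Without MMTVRANK luminal replicate 3 the median log2 fold change of the members was 1.48, and leaving out WT luminal replicate 2 instead gave 1.89. The proliferation marker Mki67 stood at 911, 402 and 878 CPM in MMTVRANK luminal and 72.5, 161 and 30.1 CPM in WT luminal, with the same 2 libraries lowest and highest within their groups.

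The 6 subunits of the MCM ring, the motor of the replicative helicase, all lay above WT in every MMTVRANK luminal library, with 0 of 6 passing the adjustment and a median log2 fold change of 1.69. Mcm5 stood at 72.8, 50.2 and 108 CPM in MMTVRANK luminal, against 11.4, 24.0 and 11.8 CPM in WT luminal, a log2 fold change of 2.29 (SE 0.64, n = 3 per group; edgeR adjusted p = 0.169). Mcm4 had the smallest difference of the ring, with 109, 78.3 and 118 CPM in MMTVRANK luminal and 43.9, 57.7 and 58.8 CPM in WT luminal (0.93, SE 0.25; edgeR adjusted p = 0.138). The remaining subunits lay between, at 1.43 for Mcm2, 1.54 for Mcm6, 1.84 for Mcm7 and 1.93 for Mcm3. Mcm6 was uneven in WT luminal cells, with 109 CPM in replicate 1 and 56.7 and 26.7 CPM in replicates 2 and 3, all below the 223, 117 and 216 CPM of MMTVRANK luminal.

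Of the 5 origin factors 0 passed the adjustment, and their median log2 fold change was 1.85. Mcm10, which binds the loaded ring as it is activated, stood at 43.0, 16.4 and 40.1 CPM in MMTVRANK luminal, against 3.74, 10.9 and 2.41 CPM in WT luminal (2.55, SE 0.68; edgeR adjusted p = 0.143). Cdc6, the loader ATPase, was low throughout, at 12.3, 4.22 and 8.03 CPM in MMTVRANK luminal and 1.87, 2.91 and 1.27 CPM in WT luminal (2.02, SE 0.63; edgeR adjusted p = 0.193). The groups did not overlap for either gene. Orc1, the ATPase subunit of the origin recognition complex, did overlap: its 4.97, 2.37 and 6.56 CPM in MMTVRANK luminal stood against 0.748, 2.84 and 0.254 CPM in WT luminal, with WT replicate 2 above MMTVRANK replicate 2. Cdt1, the partner of Cdc6 in loading, had a log2 fold change of 1.51, and Orc6, the smallest subunit of the recognition complex, had 1.30.

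The 5 cofactors that turn the ring into the active helicase had a median of 1.79, again with 0 passing. Cdc45 stood at 16.9, 7.48 and 19.5 CPM in MMTVRANK luminal and 2.32, 3.90 and 1.65 CPM in WT luminal, a log2 fold change of 2.48 (SE 0.73; edgeR adjusted p = 0.173). Its groups did not overlap. The 4 GINS subunits spanned 0.67 for Gins4 to 1.87 for Gins1, with 1.06 for Gins2 and 1.79 for Gins3, and in each the MMTVRANK luminal libraries lay above those of WT.

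Among the 5 polymerase and primase genes the median was 1.82, and Pola1 rose. Pola1, the catalytic subunit of polymerase alpha (chromosome X, 93304767 to 93632155, minus strand), stood at 67.2, 38.6 and 67.4 CPM in MMTVRANK luminal, against 15.7, 16.7 and 16.7 CPM in WT luminal. Its WT luminal libraries were the most even of any member in that group, with an SD of 0.05 on the log2(CPM + 0.5) scale. The log2 fold change was 1.82 (SE 0.31, n = 3 per group; edgeR adjusted p = 0.043). Prim1, the primase catalytic subunit that lays the RNA primer for Pola1, stood at 41.2, 25 and 35.4 CPM in MMTVRANK luminal and 8.46, 12.2 and 4.26 CPM in WT luminal (2.03, SE 0.44; edgeR adjusted p = 0.0809). Pole, the leading strand polymerase, had a larger but less even difference of 2.38 (SE 0.78), Pold1 of the lagging strand polymerase had 1.53, and Pola2, the partner subunit of Pola1, had 1.25. In all 5 the groups did not overlap.

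The clamp, its loader, single-strand binding and lagging strand genes showed the smallest shift of the 8 roles, with a median of 1.01 over 8 genes and 0 passing. Pcna, the sliding clamp, stood at 52.5, 29.6 and 40.2 CPM in MMTVRANK luminal and 19.7, 18.9 and 21.8 CPM in WT luminal (1.02, SE 0.25; edgeR adjusted p = 0.109). The groups did not overlap, and the table also lists 2 Pcna pseudogenes, with 469 counts over all libraries, that could share its reads. Lig1, which seals the Okazaki fragments, had the largest value of this role at 1.72 (SE 0.51), and stood at 159, 81.3 and 157 CPM in MMTVRANK luminal and 38.2, 56.8 and 25.9 CPM in WT luminal. The clamp loader genes Rfc3, Rfc4 and Rfc5 had 1.00, 1.48 and 0.55, and the single-strand binding genes Rpa1 and Rpa2 had 0.71 and 1.59. Fen1, the flap nuclease, had 0.78 (SE 0.79) from few counted reads, 62, 56 and 58 counts in MMTVRANK luminal and 19, 54 and 20 counts in WT luminal.

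Of the 4 nucleotide supply genes, Tyms rose and the median was 1.73. Tyms, thymidylate synthase (chromosome 5, 30058202 to 30073617, minus strand), stood at 33.1, 21.2 and 28.2 CPM in MMTVRANK luminal and 6.81, 8.51 and 5.65 CPM in WT luminal, with no overlap. Its log2 fold change was 1.97 (SE 0.34; edgeR adjusted p = 0.0457). The subunits of ribonucleotide reductase differed in size: Rrm2, the regulated small subunit, had 2.98 (SE 0.83; edgeR adjusted p = 0.163) and Rrm1, the large subunit, had 1.49 (SE 0.32; edgeR adjusted p = 0.0838). Rrm2 stood at 70.4, 24.1 and 34.0 CPM in MMTVRANK luminal and 5.24, 6.81 and 4.19 CPM in WT luminal, so MMTVRANK replicate 1 carried much of the mean. Thymidine kinase Tk1, the salvage enzyme, overlapped between genotypes, at 44.2, 18.7 and 36.6 CPM in MMTVRANK luminal and 9.65, 25.8 and 18.3 CPM in WT luminal (0.89, SE 0.40).

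The 4 chromatin genes held both the third called member and the smallest fold change of all. Atad2, a bromodomain ATPase (chromosome 15, 58094044 to 58135082, minus strand), stood at 114, 62.1 and 101 CPM in MMTVRANK luminal and 20.5, 32.2 and 22.0 CPM in WT luminal. It rose by 1.89 on the log2 scale (SE 0.30; edgeR adjusted p = 0.0385). Uhrf1, which brings Dnmt1 to newly copied DNA, stood at 81.2, 44.1 and 96.7 CPM in MMTVRANK luminal, against 9.65, 20.1 and 4.76 CPM in WT luminal (2.68, SE 0.80; edgeR adjusted p = 0.189). Hells, a chromatin remodeller needed for DNA methylation, had 2.33 (SE 0.55; edgeR adjusted p = 0.105), and neither gene overlapped between genotypes. Dnmt1 itself, the maintenance methyltransferase, had 0.37 (SE 0.20), at 360, 327 and 386 CPM in MMTVRANK luminal and 212, 327 and 293 CPM in WT luminal.

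The 4 E2F genes had the largest median of the roles, 2.37, with 0 passing. E2f8, a repressor of the atypical branch of the family, had the largest fold change of all 41 members at 3.17 (SE 0.73; edgeR adjusted p = 0.0999), from 24.6, 12.5 and 27.9 CPM in MMTVRANK luminal and 1.57, 3.41 and 2.22 CPM in WT luminal. E2f7, the other atypical repressor, stood at 12.7, 6.46 and 12.9 CPM in MMTVRANK luminal, against 0.674, 4.75 and 0.508 CPM in WT luminal (2.43, SE 0.76). WT replicate 2 alone came near the MMTVRANK level of E2f7, and without both WT replicate 2 libraries its log2 fold change was 4.16. In that fit Mcm10 had 3.43, Uhrf1 3.36, Orc1 3.20 and Fen1 1.47. There E2f7 and E2f8 were among 8 called members, beside Prim1, Mcm10, Hells, Pola1, Tyms and Atad2. The activators E2f1 and E2f2 had 2.30 (SE 0.69) and 1.59 (SE 0.68), and their groups did not overlap either.

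**Figure D3:**
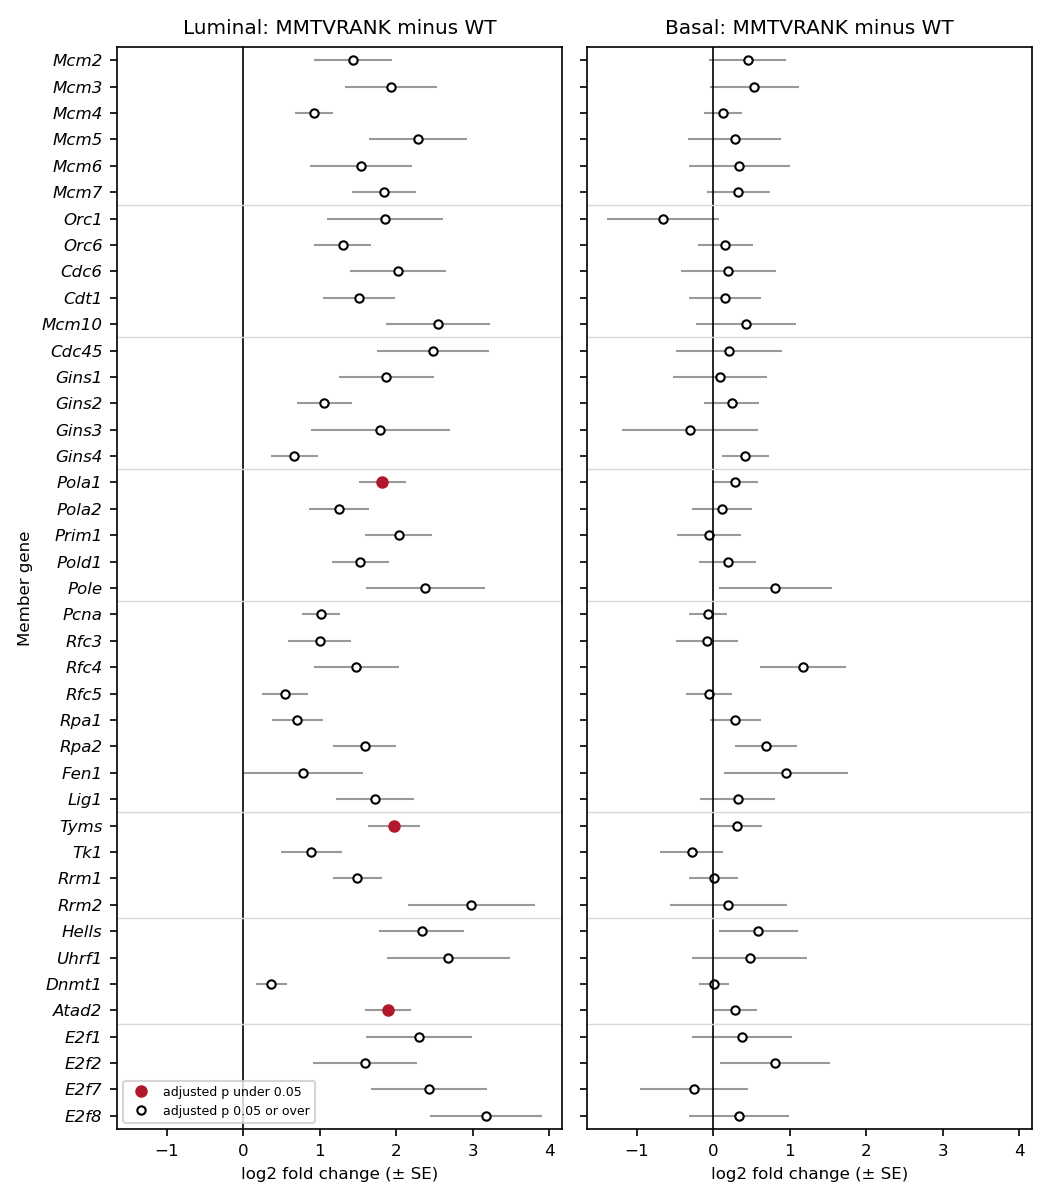
Log2 fold change, MMTVRANK minus WT, with its SE for each member in luminal (left) and basal (right) libraries, n = 3 per group; filled red points passed an adjusted p of 0.05. On the left all 41 points are right of 0, from 0.37 for Dnmt1 to 3.17 for E2f8, and on the right they lie between −0.65 for Orc1 and 1.17 for Rfc4.

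The number of luminal calls depended on the tool and on single libraries. The sign of each luminal value was kept under every alternative, which says little for the 35 members whose groups do not overlap. DESeq2 called 24 members, limma-voom 2 and edgeR on the luminal libraries alone 0, all of them higher in MMTVRANK. For alternative fits, here and elsewhere in the text, the share of all genes called is not given. Their counts therefore compare settings and not members with other genes. The count was 0 without MMTVRANK luminal replicate 3, without WT luminal replicate 1 or 3, or without any 1 of the MMTVRANK basal libraries. Basal libraries enter the luminal test through the shared filter, scaling and estimate of the spread, and the part of each was not tested. The count was 1 without MMTVRANK luminal replicate 1, 6 without WT basal replicate 2 and 8 without WT basal replicate 3. Over 20 alternatives Atad2 was called in 13 and Pola1 and Tyms in 10 each.

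In basal cells the same genes showed no called difference between genotypes. The edgeR test called 0 of 41 members higher, with 0% of all genes as background, and 0 lower, with 0.00548% as background (1 gene). DESeq2 and limma-voom called 0 members, and 0 had an unadjusted p under 0.05, where 986 of 18236 genes did in the edgeR test. The median log2 fold change was 0.28, against 0.00 over all genes, and 33 of 41 values were positive against 50.5% of all genes. All MMTVRANK basal libraries lay above all WT basal libraries in 1 member, Rfc4, where 6.60% of all genes did so, and below in 0, where 4.52% did. Rfc4 stood at 9.38, 8.18 and 6.35 CPM in MMTVRANK basal and 3.79, 5.83 and 0.941 CPM in WT basal (1.17, SE 0.56; edgeR adjusted p = 0.901).

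The WT basal libraries were the least even of the 4 groups. Members summed to 1605, 1122 and 1196 CPM in MMTVRANK basal replicates 1, 2 and 3, against 926, 1723 and 716 CPM in WT basal. The library labelled WT basal replicate 2 was the highest of all basal libraries in 24 members, and WT basal replicate 3 the lowest in 29. The median SD of a member within WT basal was 0.74 on the log2(CPM + 0.5) scale, against 0.43 for all genes, and in MMTVRANK basal it was 0.39 against 0.29. Rrm2 showed the widest spread, with 37.2, 16.3 and 20.1 CPM in MMTVRANK basal and 18.9, 42.9 and 2.05 CPM in WT basal. Pole stood at 37.5, 25.7 and 23.7 CPM in MMTVRANK basal and 10.4, 36.8 and 2.05 CPM in WT basal. In both genes WT replicate 2 was close to or above the highest MMTVRANK library, and WT replicate 3 was below every other basal library. Mki67 followed the same libraries, at 501, 434 and 220 CPM in MMTVRANK basal and 158, 533 and 19.4 CPM in WT basal.

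The size and sign of the basal median therefore rested on single WT libraries. It was 0.74 without the library labelled WT basal replicate 2, with 0 members called, and −0.06 without WT basal replicate 3. That replicate 2 library also held the most Tnfrsf11a of the WT basal group, 158 CPM, and whether this bears on its replication genes was not tested. The fibroblast markers summed to 1710, 1198 and 1557 CPM in MMTVRANK basal and 4109, 1281 and 1196 CPM in WT basal, so WT basal replicate 1 and not replicate 2 or 3 stood apart in these. The 14 luminal markers summed to 648, 552 and 528 CPM in MMTVRANK basal and 841, 828 and 845 CPM in WT basal, without overlap. All 14 had a negative log2 fold change, with a median of −0.72, 7 with an unadjusted p under 0.05 and 0 called by edgeR. The part of these markers in the basal values was not tested.

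**Figure D4:**
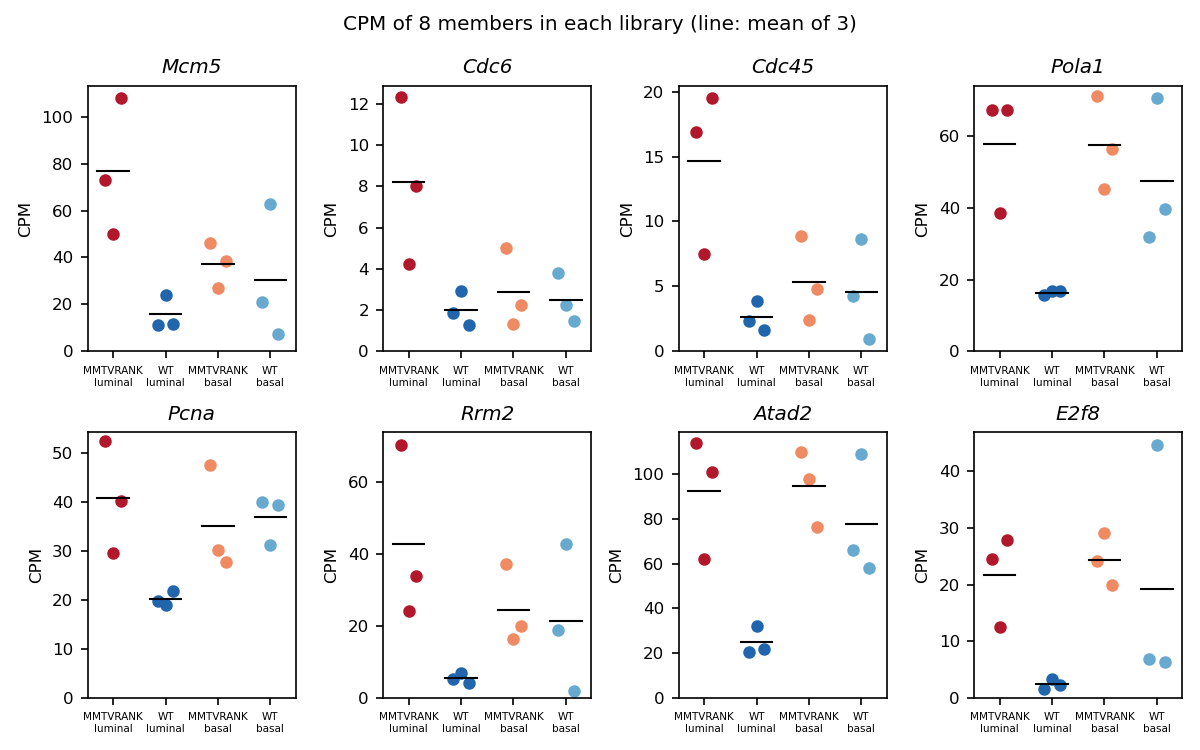
CPM of 8 members in each library, 1 point per library and a black line at the mean of 3, with groups along the horizontal axis and each vertical axis starting at 0. MMTVRANK luminal points lie above WT luminal points in each panel, while MMTVRANK basal and WT basal points overlap. WT basal replicate 2 is the highest blue basal point for Mcm5, Cdc45, Pola1, Rrm2, Atad2 and E2f8.

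Luminal and basal cells were also compared within each genotype. In WT, 8 members fell in luminal relative to basal cells and 1 rose (edgeR adjusted p under 0.05), with 20% of all genes called lower and 18% called higher as background. The members that fell were E2f8 (−3.0), E2f7 (−2.27), Orc1 (−2.07), Atad2 (−1.64), Pola1 (−1.53), Rrm1 (−1.04), Pcna (−0.87) and Mcm4 (−0.80). Thus 8 of 41 is close to the share of all genes that fell. E2f8 stood at 1.57, 3.41 and 2.22 CPM in WT luminal and 6.80, 44.7 and 6.33 CPM in WT basal (SE 0.72; edgeR adjusted p = 0.0071), and the groups did not overlap. Atad2 stood at 20.5, 32.2 and 22.0 CPM in WT luminal and 66.0, 109 and 57.9 CPM in WT basal (SE 0.29; edgeR adjusted p = 0.000886). The median over the members was −0.75, against −0.07 over all genes, and it turned to 0.14 without WT basal replicate 2. The calls numbered 5 without WT luminal replicate 1 or 3, and Pola1 and Atad2 were called under each of the 20 alternatives, Orc1 under 9. Without both WT replicate 2 libraries 6 members were called, and Mcm4 (−0.49), Rrm1 (−0.77) and Pcna (−0.92) no longer passed. In the same fit E2f8 had −1.77, E2f7 −3.88, Orc1 −2.79 and E2f2 3.09.

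In MMTVRANK cells 6 members rose in luminal relative to basal cells and 0 fell, with 16.1% of all genes called higher and 17% called lower. The share of members that rose is again close to that of all genes. The members that rose were E2f2 (2.77), Tk1 (1.51), Prim1 (1.32), Pold1 (1.17), Rfc5 (0.94) and Dnmt1 (0.75). The median was 0.92, against 0.05 over all genes, and 38 of 41 values were positive. Tk1 stood at 44.2, 18.7 and 36.6 CPM in MMTVRANK luminal and 15.0, 13.0 and 6.97 CPM in MMTVRANK basal (SE 0.41; edgeR adjusted p = 0.0131). The groups did not overlap for Tk1. With the replicate number as a block, Cdc6 and Gins2 were called as well (edgeR adjusted p = 0.0455 and 0.0435). The count was 1 without MMTVRANK basal replicate 3, 3 without MMTVRANK basal replicate 2 or without MMTVRANK luminal replicate 1 or 3, 11 without WT basal replicate 2 and 12 without WT basal replicate 3.

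None of the 8 members that fell in WT luminal cells was called between the populations of MMTVRANK cells. These comparisons use the same libraries as those between genotypes. Pola1 had 67.2, 38.6 and 67.4 CPM in MMTVRANK luminal and 71.2, 45.2 and 56.5 CPM in MMTVRANK basal, a log2 difference of 0.00 (SE 0.30). Its groups overlapped. Atad2 had −0.04 (SE 0.28), Mcm4 0.00 (SE 0.25) and E2f8 −0.17 (SE 0.65), and the other 4 lay between 0.21 for Pcna and 0.44 for Rrm1. E2f2 had the largest luminal over basal fold change of the members in both genotypes. This activator E2F stood at 12.8, 6.33 and 8.79 CPM in MMTVRANK luminal and 1.97, 0.843 and 1.25 CPM in MMTVRANK basal (2.77, SE 0.72; edgeR adjusted p = 0.00997). In WT it stood at 3.52, 3.05 and 2.67 CPM in luminal and 0.619, 1.58 and 0.0856 CPM in basal libraries, the last from 1 count (1.98, SE 0.72; edgeR adjusted p = 0.0452). Luminal libraries lay above basal libraries of E2f2 in both genotypes without overlap, and 8 of 20 alternatives kept the WT call.

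The difference between the genotype effects was tested itself, as the effect in luminal minus the effect in basal cells. It equals the luminal over basal contrast in MMTVRANK minus that in WT. The edgeR test called 0 members higher, with 0% of all genes as background, and 0 lower, with 0.00548% as background. DESeq2 called 1 member and limma-voom 0. In the edgeR test 18 members had an unadjusted p under 0.05, against 1410 of 18236 genes. The values were positive in 40 of 41 members, against 53.9% of all genes, with a median of 1.40 against 0.05. The lowest p belonged to Atad2, with a difference of 1.60 (SE 0.41; edgeR adjusted p = 0.397), and Fen1 was the negative member at −0.17 (SE 1.11). Without WT basal replicate 2 the median was 0.91, and without WT basal replicate 3 it was 1.72. The luminal calls of Pola1, Tyms and Atad2 are therefore not shown to differ from the basal effects of 0.28, 0.31 and 0.29.

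Levels were compared between members as TPM, which divides counts by the deposited exon length before scaling each library. Dnmt1 had the highest mean of the members in all 4 groups, at 106 TPM in MMTVRANK luminal and 77.6 TPM in WT luminal, and 51.1 TPM in MMTVRANK basal and 58.3 TPM in WT basal. In MMTVRANK basal Mcm4 was close, at a mean of 50.9 TPM. Mcm4 lay above Dnmt1 in MMTVRANK basal replicate 3 (57.9 against 46.7 TPM) and WT basal replicate 2 (79.0 against 74.3 TPM). By mean, Mcm4 was the next in MMTVRANK basal, WT basal and WT luminal, and Mcm6 in MMTVRANK luminal. At the other end, E2f7 had the lowest mean in luminal cells, 2.58 TPM in MMTVRANK and 0.45 TPM in WT, and E2f2 in basal cells, 0.492 TPM in MMTVRANK and 0.320 TPM in WT. Uhrf1 ranked 7 of 41 in MMTVRANK luminal and 19 in WT luminal, and Rrm2 ranked 10 and 24.

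The 6 MCM proteins form a ring with 1 copy of each, but their transcripts were not level. The highest TPM of the ring was 3.41, 2.75 and 2.57 times the lowest in MMTVRANK luminal replicates 1, 2 and 3, against 8.49, 3.49 and 5.53 times in WT luminal. The ratio was 3.61, 5.76 and 4.63 in MMTVRANK basal and 6.57, 4.07 and 11.7 in WT basal. The MMTVRANK luminal libraries were thus the most even of the luminal libraries, and the basal groups overlapped. Mcm6 was highest in all 3 MMTVRANK luminal libraries and in WT luminal replicate 1, and Mcm4 in the other 8. In WT basal replicate 3 Mcm4 held 46.3 TPM while Mcm5 held 3.96 TPM.

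**Figure D5:**
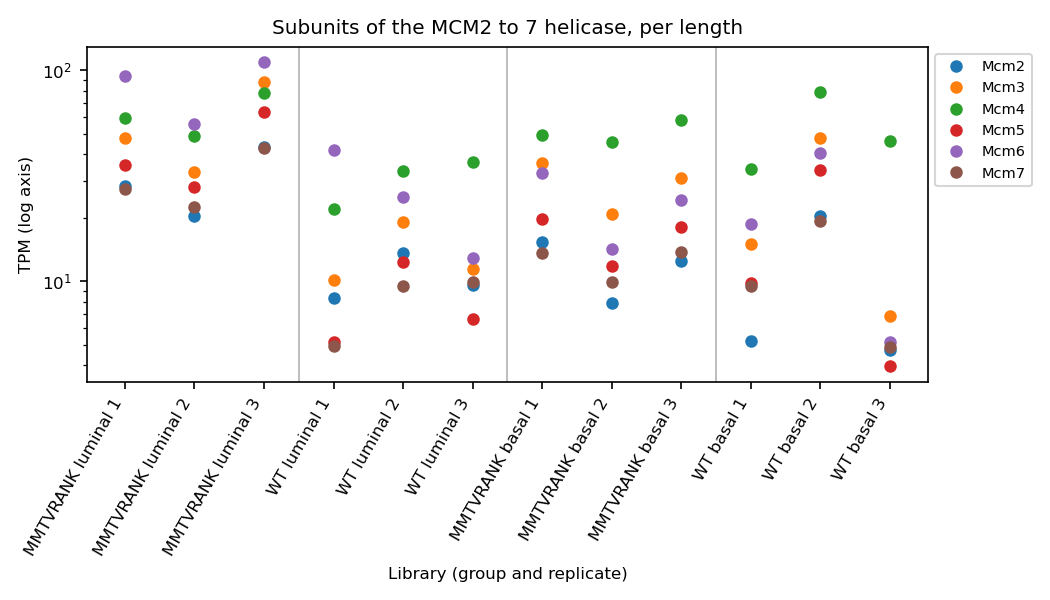
TPM of the 6 MCM ring subunits in each library on a log axis, 1 point per subunit and library, with vertical lines between the groups. Mcm6 is the top point in MMTVRANK luminal libraries and Mcm4 in all basal libraries, and the points spread least in MMTVRANK luminal and most in WT basal replicate 3, where the highest is 11.7 times the lowest.

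Genes of the same pathways outside the 41 were read from lists drawn up with earlier results of these data known. Among 44 other fork and origin genes, 0 passed the edgeR adjustment in luminal cells, 23 had an unadjusted p under 0.05, 41 were positive and the median was 0.72. The ones with the smallest p were Dscc1, a loader subunit for sister chromatid cohesion (2.71, SE 0.52; edgeR adjusted p = 0.0586), and the histone chaperone Nasp (1.24, SE 0.27). Prim2, the partner of Prim1 in primase, had 1.14 (SE 0.27), and the helicase Mcm8 had 1.75 (SE 0.45). Nasp stood at a mean of 132 ± 40.9 CPM in MMTVRANK luminal and 55.9 ± 8.09 CPM in WT luminal (SD, n = 3). Among 36 other nucleotide synthesis genes 0 passed, 9 had an unadjusted p under 0.05, 27 were positive and the median was 0.25. In that list Dck, the deoxycytidine kinase, had 2.13 (SE 0.45). Dut, which clears dUTP, had 1.31 (SE 0.30) and the folate enzyme Mthfd1 had 0.70 (SE 0.18). Their edgeR adjusted p lay between 0.0799 and 0.113.

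Of 9 other E2F and pocket protein genes 0 passed and the median was 0.21, with Rbl1, the pocket protein p107, at 1.20 (SE 0.39; edgeR adjusted p = 0.217). The dimer partner Tfdp1 had 0.58 (SE 0.28) and E2f3 had 0.54 (SE 0.27). Of these 9 genes, 6 were positive and 3 negative, the lowest at −0.55, and 1 had an unadjusted p under 0.05. Of 30 mitosis genes, read beside the members because they peak later in the cycle, 0 passed and 28 had an unadjusted p under 0.05. Over all genes tested, 2183 of 18236 had such a p. All 30 mitosis genes had their MMTVRANK luminal libraries above those of WT luminal, which held for 10.1% of all genes. Their median was 2.64, against 1.72 for the 41 members. Plk1, a mitotic kinase, had 3.12 (SE 0.87; edgeR adjusted p = 0.163), and Ttk, of the spindle checkpoint, had 2.78 (SE 0.69; edgeR adjusted p = 0.111). The mitosis list summed to 3217, 1244 and 2653 CPM in MMTVRANK luminal and 345, 614 and 140 CPM in WT luminal, the same order of libraries as for the members but for MMTVRANK replicates 1 and 3. In basal cells its median was 0.62, with 29 of 30 positive and 0 called.

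Members with and without an E2F match in their windows were described side by side. The 17 with a match had a median luminal log2 fold change of 1.82, from 0.37 to 2.68, and the 18 without a match had 1.48, from 0.55 to 3.17. The ranges overlapped over most of their length, and the largest changes, E2f8 and Rrm2, were without a match. The 18 include E2f1, whose window lay inside its gene model.

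Markers of the sorted populations moved alongside in luminal cells. The 14 luminal markers summed to 14469, 13123 and 8854 CPM in MMTVRANK luminal and 23424, 18443 and 16832 CPM in WT luminal, so the groups did not overlap. The 14 basal markers summed to 415, 537 and 933 CPM in MMTVRANK luminal and 315, 599 and 541 CPM in WT luminal. These sums overlapped but were mostly Itga6, at 359 ± 42.1 CPM in MMTVRANK luminal and 379 ± 132 CPM in WT luminal (SD, n = 3). Taken gene by gene, 13 of the 14 basal markers had a higher estimate in MMTVRANK luminal, the median log2 fold change was 1.14, 6 had an unadjusted p under 0.05 and 0 passed the edgeR adjustment. Krt14 had 2.42 (SE 0.77), Vim 2.45 (SE 0.79) and Trp63 1.59 (SE 0.54). More genes had a count in MMTVRANK luminal libraries, 24310, 24664 and 25591, than in WT luminal libraries, 19472, 23246 and 23144. The part of these values in the members' shift was not tested.

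Overlap with other gene models limits a few members, because the deposited counting set no strand option. Another gene model overlapped 14 members, over more than 10% of the exon length in 7 of them. Fen1 shares 84.2% of its 2422 exon bases with models on the opposite strand, AC132148.3 and Tmem258, and Gins2 shares 67.3% of its 4097 with Gse1. AC132148.3 had 3, 6 and 11 counts in MMTVRANK luminal and 0, 5 and 14 counts in WT luminal, so both it and Fen1 were low. Gse1 had 1715, 1879 and 1625 counts in MMTVRANK luminal and 1840, 2453 and 2553 counts in WT luminal. Gins2 had 381, 311 and 402 counts in MMTVRANK luminal and 115, 243 and 116 counts in WT luminal. The part of the shared bases in either set of counts was not tested. Mcm7 (12.6%), Rfc4 (12.6%), E2f8 (11.2%), Orc1 (10.8%) and Rfc5 (10.7%) shared less.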

How the data were processed

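Members and gene lists were chosen with earlier results of these data known. The deposited table holds whole read counts per gene symbol, made by the authors with featureCounts 1.5.2 by largest overlap on GENCODE M17 with no strand option, per the file headers. Alignment was with STAR 2.6.1b to GRCm38.p6, per the submitters' processing notes. Libraries came from a stranded low-input total RNA kit (SMARTer Pico), and no step that removes leukocytes is named, per the labels' protocols.

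Groups followed the titles. Counts were filtered by group (filterByExpr of edgeR 4.0.16, count minimum 10), normalised (TMM), and 1 quasi-likelihood fit in R 4.3.3 took all 12 libraries as 4 groups. Each adjusted p is Benjamini-Hochberg over 18236 genes, read at 0.05, and each SE is that fold change on the log2 scale divided by √F. CPM are TMM-scaled. TPM used the deposited gene length. Positions of matches count the first base of the transcript as 1. No pair of the 66 pairs of libraries was a duplicate (chi-square per degree of freedom 28.6 or more). Replicate numbers were checked for pairing by correlating, over 10082 genes, how far same-numbered libraries lie from their group means: 0.525, 0.125 and 0.392 for luminal genotypes, 0.404, −0.0706 and 0.0915 for basal genotypes, 0.277, 0.168 and 0.343 for WT populations and 0.278, 0.144 and 0.199 for MMTVRANK populations. All but the basal genotypes had only positive values and were read as paired, from the data alone. Differently numbered libraries were not correlated for comparison, so this reading is weak. The main fit took no block, and counts from a fit with the block are given at the end. The named genes were all members, up to 4 genes of each other list by smallest p, Tnfrsf11a and Mki67. A gene that this rule names is not reported here. AC132148.3, Gse1, Itga6, Lcp1 and the named leukocyte markers at 0 were chosen after their values were seen. Alternatives used DESeq2 1.42.0, limma 3.58.1, other filters and scaling, and libraries left out. Scripts were tested on simulated data.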

Additional observations from a re-analysis of the deposited data

How the results depend on the processing

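All 41 luminal fold changes kept their sign under 20 alternatives, which the groups that do not overlap all but fix in 35 of them, and the luminal median stayed between 1.45 and 1.90. The counts of calls that follow stand without the share of all genes called in the same fit, so they compare settings only. With no filter on low counts, called members numbered 27 for luminal genotypes, 19 for MMTVRANK populations, 16 for WT populations and 16 for the difference of effects. DESeq2 gave 24, 11 for MMTVRANK populations and 1 for the difference, and limma-voom 10 for MMTVRANK populations. Fits on the groups compared alone gave 0, 18 for MMTVRANK populations and 5 for WT populations. Without both WT replicate 2 libraries there were 8 for luminal genotypes and 13 for MMTVRANK populations. Leaving out 1 library gave 0 to 8 for luminal genotypes, 1 to 12 for MMTVRANK populations and 5 to 13 for WT populations, and the WT population median ranged from −0.86 to 0.14. The cause of these shifts was not tested, apart from the smaller number of samples or larger number of genes tested that some settings bring. With the replicate number as a block (paired fit), 3, 0, 9, 8 and 0 members were called for luminal genotypes, basal genotypes, WT populations, MMTVRANK populations and the difference, and the luminal median was 1.81; beyond Cdc6 and Gins2 it changed no call. Basal genotypes gave 0 in every fit. RLE scaling and a count minimum of 30 left each count within 1.5 times. Low counts limit Fen1, Gins3, Orc1, E2f2 and E2f7, which had under 10 counts in at least 1 library. Fen1 shares 84.2% of its exon bases with other gene models, and the part of this overlap in its low counts was not tested.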
